A study of Mus musculus with 8 samples.

Results

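Dab2 and Thbd are named as somatic-specific genes in the study's text and are 2 of 21938 protein-coding genes in the mm10 annotation (GENCODE M21, GRCm38). For each gene, peaks were taken whose summit lay in the gene body or within 100 kb of its first annotated start site, in each of 8 libraries. This gave 215 of 661009 peaks, 98 at Dab2 and 117 at Thbd. Peaks of different libraries that overlapped by at least 1 bp were joined into a site, which gave 43 sites at Dab2 and 39 at Thbd out of 306466 sites in all.

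The libraries are CUT&Tag, a method that tethers the transposase Tn5 to an antibody on chromatin and sequences the DNA it tags around bound places. The cells, mouse embryonic fibroblasts (MEFs), were taken on day 3 of reprogramming, and the antibody was against Flag, the tag on the delivered factor. The groups were native Nanog, Oct4, Sox2 and Nr5a2 and the fusions NanogBiD, Oct4BiD, Sox2BiD and Nr5a2BiD, with 1 library in each. BiD is the BRG1-binding domain of SS18, BRG1 being the motor subunit of the BAF complex that moves nucleosomes, and it was joined to the N-terminus of each factor.

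Per the study's methods, retroviral vectors carried the factors into OG2-MEFs, fibroblasts of an Oct4-GFP reporter mouse, and the cells were then kept in the reprogramming medium iCD3. Tagged factor was therefore made from a vector in a culture of mixed progress, and no library of uninfected cells or of a control antibody was analysed here. The library titles do not say which untagged factors were delivered with the tagged one. Lists of peaks hold no RNA, so nothing below is a level of Dab2 or Thbd expression.

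Dab2 (disabled 2) is a cargo-selective clathrin adaptor that binds receptors such as the LDL receptor family and links them to the endocytic machinery. Thbd (thrombomodulin) is a membrane glycoprotein that binds thrombin and turns it toward activation of the anticoagulant protein C, and it is best known from endothelium. The study names both genes as somatic-specific, and many genes of differentiated cells are silenced as reprogramming proceeds. Transcription factors bind such genes at promoters, near the start of transcription, and at enhancers, which can lie far from it, and pluripotency factors early in reprogramming are known to occupy many regions already open in fibroblasts.

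Dab2 (ENSMUSG00000022150.16) lies on the plus strand of chromosome 15 from 6299788 to 6440712, a length of 140.9 kb. It has 13 annotated start sites, the first at 6299788 and a second group that begins at 6386598. Thbd (ENSMUSG00000074743.4) is a short gene of 3.7 kb on the minus strand of chromosome 2, from 148404466 to 148408188, with 1 annotated start site at 148408188. The windows measured 240.9 kb for Dab2 and 200.0 kb for Thbd.

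The 2 Dab2 promoters below, from RefSeq (GRCm38.p6, plus strand, 250 bases before to 50 after the RefSeq start), are shown because peaks covered the second and not the first. The first had a GC content of 37.7% and 2 CpG dinucleotides, and the second 59.3% and 19, against medians of 52.7% and 7 over 32851 RefSeq promoters. The second is placed on the start at 6386748, in the same group as 6386598. Capitals mark the 1 match among the motifs searched, a TEAD match.
Dab2 first start, chr15:6299539-6299838: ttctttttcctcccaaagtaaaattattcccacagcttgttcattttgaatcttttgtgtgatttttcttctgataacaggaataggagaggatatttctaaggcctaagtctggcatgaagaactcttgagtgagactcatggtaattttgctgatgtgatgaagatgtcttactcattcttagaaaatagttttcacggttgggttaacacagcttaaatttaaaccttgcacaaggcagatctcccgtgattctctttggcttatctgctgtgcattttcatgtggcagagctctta
Dab2 second start, chr15:6386498-6386797: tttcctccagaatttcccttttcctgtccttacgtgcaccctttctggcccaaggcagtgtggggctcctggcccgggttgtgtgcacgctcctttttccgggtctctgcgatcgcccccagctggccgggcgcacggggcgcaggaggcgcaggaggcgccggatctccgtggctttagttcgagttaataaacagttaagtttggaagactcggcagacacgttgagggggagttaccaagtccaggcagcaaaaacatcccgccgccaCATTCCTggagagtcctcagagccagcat

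The motifs searched, on both strands, were ATGCAAAT (the octamer read by Oct4), CCATTGTT (SOX), CAAGGTCA (NR5A), GCCATTA (NANOG), TGACTCA (AP-1), CATTCCA or CATTCCT (TEAD) and AACCACA (RUNX), and none of them contains another. A TEAD match was present in 9.35% of the promoters, so the match at the second start is a common one. The sequences below are the 101 bases around summits of the Dab2 window (mm10, plus strand), chosen as the highest summit of a library or as a summit with a match to the motif of its own factor. Capitals mark motif matches.
Nr5a2, 62.0 kb upstream, chr15:6237697-6237797: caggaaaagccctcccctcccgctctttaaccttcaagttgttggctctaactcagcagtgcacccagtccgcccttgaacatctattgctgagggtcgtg
Nr5a2, 51.9 kb upstream, NR5A match, chr15:6247809-6247909: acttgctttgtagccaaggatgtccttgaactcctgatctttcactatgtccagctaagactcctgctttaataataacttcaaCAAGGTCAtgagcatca
Sox2BiD, 39.7 kb upstream, TEAD match, chr15:6260061-6260161: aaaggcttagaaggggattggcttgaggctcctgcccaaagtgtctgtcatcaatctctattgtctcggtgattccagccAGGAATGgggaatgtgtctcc
Nanog, 19.5 kb upstream, chr15:6280258-6280358: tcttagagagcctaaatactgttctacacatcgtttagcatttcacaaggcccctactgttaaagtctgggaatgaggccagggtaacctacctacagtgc
Oct4, 10.9 kb downstream, RUNX match, chr15:6310615-6310715: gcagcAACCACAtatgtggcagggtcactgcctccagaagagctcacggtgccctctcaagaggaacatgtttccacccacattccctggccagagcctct
Nanog, 38.2 kb downstream, NANOG match, chr15:6337970-6338070: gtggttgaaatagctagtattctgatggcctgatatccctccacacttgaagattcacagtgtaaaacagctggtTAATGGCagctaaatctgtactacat
NanogBiD, 84.4 kb downstream, TEAD match, chr15:6384107-6384207: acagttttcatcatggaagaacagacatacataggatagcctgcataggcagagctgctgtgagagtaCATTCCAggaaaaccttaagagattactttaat

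For Thbd the same kind of window is shown at the highest summits, at the summit 1.2 kb upstream of the start, at the place where 7 libraries had a summit and at matches to the factor's own motif. All are mm10, plus strand, with motif matches in capitals, so the gene itself reads in the opposite direction.
NanogBiD, 80.2 kb downstream, chr2:148327902-148328002: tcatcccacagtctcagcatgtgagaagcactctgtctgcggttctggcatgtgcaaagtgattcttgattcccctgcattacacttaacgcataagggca
Sox2BiD, 69.6 kb downstream, chr2:148338587-148338687: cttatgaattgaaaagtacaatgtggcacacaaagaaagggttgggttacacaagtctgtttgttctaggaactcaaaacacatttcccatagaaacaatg
Sox2, 64.6 kb downstream, AP-1 match, chr2:148343543-148343643: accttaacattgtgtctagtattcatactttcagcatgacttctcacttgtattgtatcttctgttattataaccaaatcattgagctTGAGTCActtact
Nr5a2, 34.4 kb downstream, NR5A match, chr2:148373748-148373848: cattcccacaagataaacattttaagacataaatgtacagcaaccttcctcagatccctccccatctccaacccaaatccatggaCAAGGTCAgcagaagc
Nr5a2, 1.2 kb upstream, chr2:148409332-148409432: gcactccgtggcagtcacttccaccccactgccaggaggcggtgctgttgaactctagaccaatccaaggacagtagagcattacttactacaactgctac
Nr5a2BiD, 38.4 kb upstream, chr2:148446567-148446667: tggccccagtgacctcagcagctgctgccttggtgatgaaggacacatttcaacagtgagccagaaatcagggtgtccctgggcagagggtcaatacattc
Sox2BiD, 48.8 kb upstream, SOX match, chr2:148456928-148457028: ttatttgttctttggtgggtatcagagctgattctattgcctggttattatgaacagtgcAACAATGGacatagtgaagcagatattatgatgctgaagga
Nr5a2BiD, 68.3 kb upstream, NR5A match, chr2:148476435-148476535: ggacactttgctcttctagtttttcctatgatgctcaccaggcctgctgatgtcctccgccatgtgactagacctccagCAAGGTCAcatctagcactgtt
Sox2BiD, 70.3 kb upstream, AP-1 match, chr2:148478476-148478576: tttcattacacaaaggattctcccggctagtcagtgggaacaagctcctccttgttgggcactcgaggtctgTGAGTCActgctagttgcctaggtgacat

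The lists held between 54794 peaks (native Oct4) and 120594 peaks (Sox2BiD), and the median summit height was between 16 tags (native Nanog) and 22 tags (native Sox2). Heights are not scaled to sequencing depth, so a peak is placed below mainly by its rank: the percent of its own library's list with a score at least as high. To set the fibroblast label beside marker genes, promoter summits were counted within 2 kb of any annotated start. Of 7 fibroblast genes, 3 had one in all 8 libraries and none lacked one throughout, of 5 endothelial genes 0 had one in all 8, and 4 pluripotent genes (Pou5f1, Zfp42, Dppa5a, Esrrb) had none in any library. Over all protein-coding genes, 17.2% had one in all 8 libraries and 24.4% had none in any. These counts describe where the tagged factors lay, and the 7 fibroblast genes include Col1a2 and Vim with summits in all 8.

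The start sites differed between the 2 genes and within Dab2. A peak covered the second start of Dab2 in all 8 libraries, while no peak of any library covered its first start. At Thbd a peak covered the only start in 7 of 8 libraries, all except native Sox2. Taken over any annotated start with a 2 kb limit, Dab2 had a promoter summit in 8 libraries and Thbd in 7.

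Such summits are frequent. The share of protein-coding genes with a promoter summit was 51.2% in native Nanog, 54.5% in NanogBiD, 39.0% in native Oct4, 55.9% in Oct4BiD, 25.2% in native Sox2, 53.4% in Sox2BiD, 63.5% in native Nr5a2 and 54% in Nr5a2BiD. Dab2 had a promoter summit in all 8 libraries and so belonged to the 17.2% of genes that did, while Thbd did not.

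At the second start of Dab2 the summit heights were 44 tags in native Nanog, 49 in NanogBiD, 23 in native Oct4, 27 in Oct4BiD, 11 in native Sox2, 22 in Sox2BiD, 39 in native Nr5a2 and 36 in Nr5a2BiD. The Nanog and Nr5a2 libraries were the high ones and native Sox2 the low one. All 8 summits lay within 202 bp of the start at 6386598. By rank the order was different: native Nr5a2 stood highest, in the top 9.93% of its list, Nr5a2BiD in the top 15.4%, native Nanog at 39.3%, NanogBiD at 39.1%, and native Sox2 at 99.7%, close to the threshold of the caller.

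Near the first start of Dab2 only Oct4, Oct4BiD and Sox2BiD had a summit within 2 kb. Native Oct4 had 22 tags at 1113 bp inside the gene, Oct4BiD 22 tags at 964 bp upstream and Sox2BiD 17 tags at 985 bp upstream. Oct4BiD had a further summit at the native Oct4 place, 1.1 kb inside the gene, with 45 tags. In the other libraries the nearest summit was between 5372 bp (native Sox2) and 34519 bp (Nr5a2BiD) away.

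At Thbd the summits nearest to the start were 21 tags in native Nanog at 520 bp inside the gene, 30 in NanogBiD at 1140 bp upstream, 13 in native Oct4 at 1162 bp upstream and 17 in Oct4BiD at 17 bp upstream. Sox2BiD had 45 tags at 923 bp upstream, native Nr5a2 58 at 1194 bp upstream and Nr5a2BiD 31 at 388 bp inside the gene. The nearest summit of native Sox2 was 2918 bp inside the gene, with 22 tags. Native Nr5a2 stood highest in its own list, in the top 4.74%.

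The summits at Thbd were gathered mostly upstream of the start and not on it. A cluster of summits 1.2 kb upstream held 6 libraries within 86 bp, including a second summit of native Nanog (17 tags), of Oct4BiD (18 tags) and of Nr5a2BiD (52 tags). With a limit of 500 bp in place of 2 kb, only 2 libraries would count for Thbd, against 8 for Dab2, a difference in spacing that the 2 kb count does not show.

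**Figure D1:**
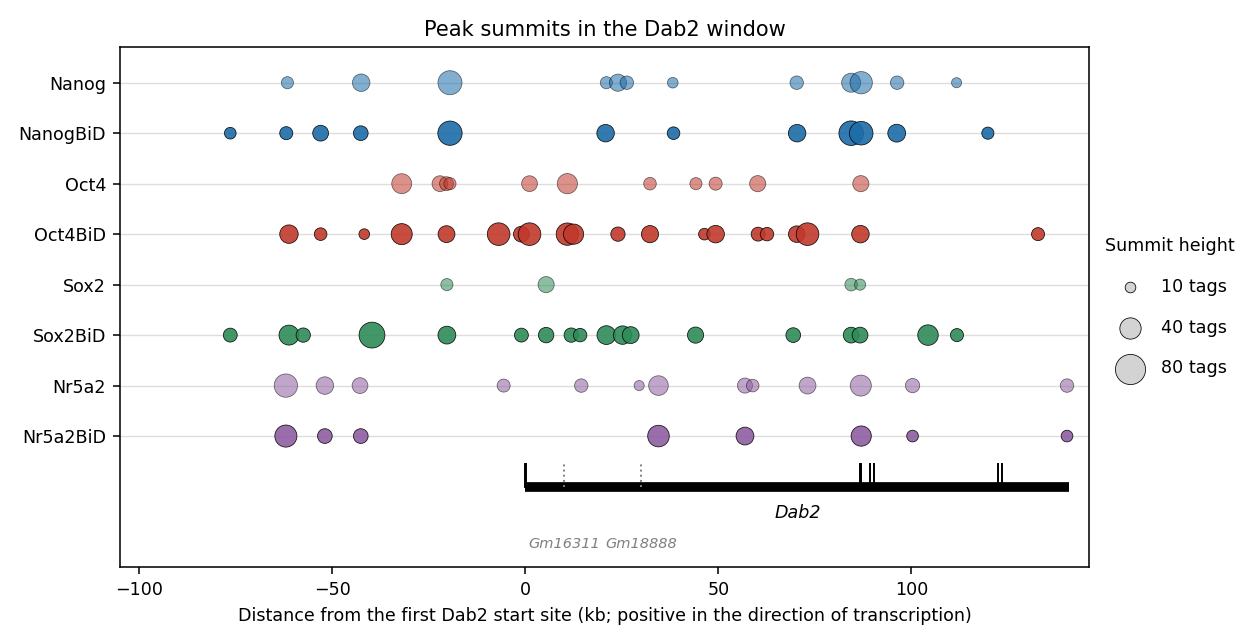
Summits in the Dab2 window. The x axis is the distance in kb from the first start site, each row is 1 library, and each point is a summit with an area in proportion to its height in tags (native factors in lighter colour). The black bar is the gene, the short black lines its annotated starts and the dotted grey lines starts of other genes. Points of all 8 rows line up near 87.0 kb, and the Nanog rows have their largest upstream points at 19.5 kb upstream.

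Away from the starts, the best-ranked Dab2 peaks were each led by 1 factor. At 19.5 kb upstream, native Nanog had 51 tags (top 0.455% of its list) and NanogBiD 52 tags (top 1.09%), with summits 26 bp apart. Native Oct4 had a weak summit at the same place (13 tags, top 86.3%). The joined region also held both Oct4 and both Sox2 libraries, whose summits lay at 20.4 kb for Oct4 (17 tags) and Oct4BiD (25 tags) and at 20.3 kb for Sox2 (13 tags) and Sox2BiD (28 tags). No Nr5a2 peak was in that region.

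The highest Dab2 peak of any library was in Sox2BiD alone, 39.7 kb upstream, with 59 tags (top 1.81%). No other library, native Sox2 included, had a peak overlapping it. The Oct4 pair had its best-ranked peaks 32.0 kb upstream, 35 tags in native Oct4 (top 2.89%) and 39 in Oct4BiD (top 3.45%), at a site that no other library shared.

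The Nr5a2 pair was highest 62.0 kb upstream, with 48 tags in native Nr5a2 (top 5.53%) and 43 in Nr5a2BiD (top 7.78%). That site held 6 libraries: NanogBiD had 15 tags, native Nanog 13, Oct4BiD 30 and Sox2BiD 35, the last 2 with summits 61.2 kb upstream. Native Oct4 and native Sox2 were without a peak there. In the gene body the Nr5a2 pair also had a site of its own at 34.5 kb (34 and 41 tags).

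In the body of Dab2, just before the second start, lay a site of the Nanog and Sox2 libraries only, 84.4 kb from the first start. Heights were 32 tags in native Nanog, 53 in NanogBiD, 14 in native Sox2 and 22 in Sox2BiD. NanogBiD was the high one, and the 4 summits were placed at the same 84.4 kb. Beyond the second start the tallest peak was that of Sox2BiD alone at 104.3 kb (37 tags).

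**Figure D2:**
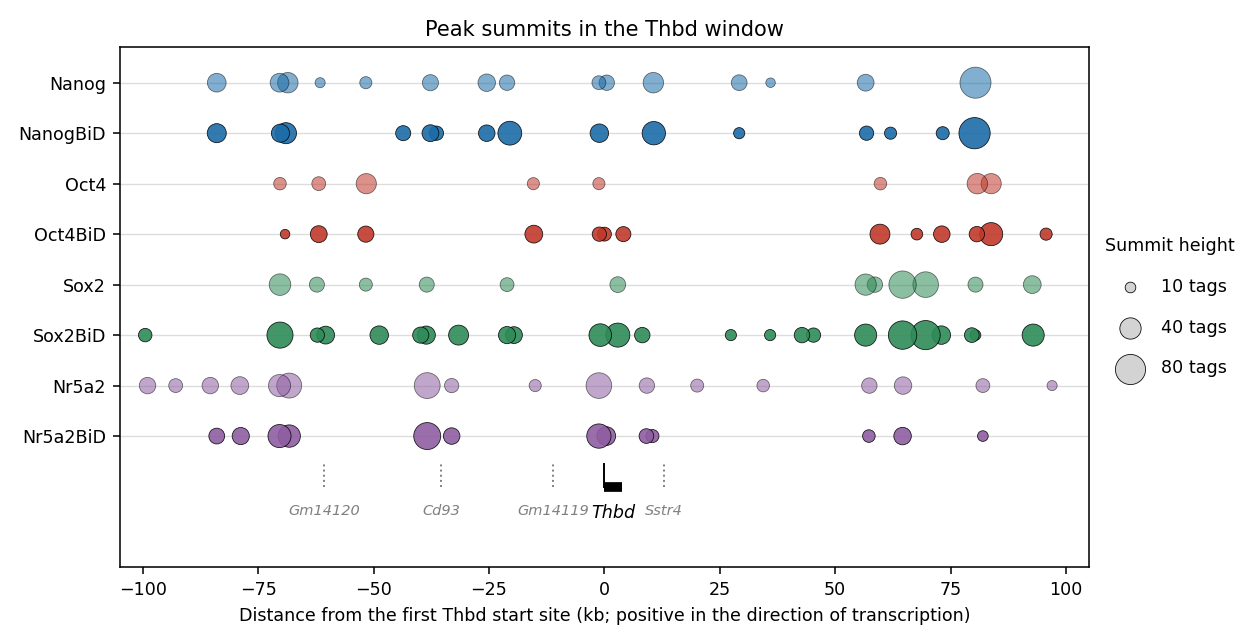
Summits in the Thbd window, drawn as for Dab2, with distance in kb from the start site and positive values in the direction of transcription. The largest points are those of the Nanog rows at 80.2 kb and 80.4 kb and of the Sox2 rows at 69.6 kb and 64.6 kb, all downstream of the gene.

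Around Thbd the highest peaks were downstream of the gene. Native Nanog had 85 tags (top 1.55%) at 80.4 kb and NanogBiD 86 tags (top 0.150%) at 80.2 kb, the best rank of any of the 215 peaks. The joined region was 4315 bp long and had peaks of all 8 libraries, but the summits were not at 1 place. Oct4 had 37 tags at 80.8 kb and Oct4BiD 21 at 80.7 kb. Native Sox2 had 20 tags at 80.4 kb, Sox2BiD 19 at 79.6 kb, native Nr5a2 17 and Nr5a2BiD 10 at 82.0 kb. The Nanog libraries were therefore high by more than a factor of 2 in tags over the other 6, although heights are not scaled to depth.

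Sox2BiD had its highest peak at 69.6 kb, with 75 tags (top 5.25%), where native Sox2 had 58 (top 7.16%) and no other library had a peak. At 64.6 kb native Sox2 had its own highest peak, 66 tags, and Sox2BiD 71, beside 27 in each of the Nr5a2 libraries. At 92.9 kb the Sox2 pair again stood alone, with 28 and 43 tags. The Oct4 pair had its own site at 83.8 kb (36 and 47 tags). The annotated start nearest to the sites at 64.6, 69.6, 80.2 and 83.8 kb was that of Sstr4, a somatostatin receptor gene, 51710 to 70911 bp away.

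Upstream of Thbd the highest summit was that of Nr5a2BiD. At 38.4 kb native Nr5a2 had 59 tags (top 4.80%) and Nr5a2BiD 64 (top 2.71%), above the 20 to 29 tags of the Nanog and Sox2 libraries in the same joined region. The start of Cd93, which encodes a relative of thrombomodulin, was 3054 bp from this site. At 68.3 kb, where the printed sequence carries the NR5A letters, native Nr5a2 had 55 tags (top 6.16%) and Nr5a2BiD 44 (top 5.17%). NanogBiD had 39 tags and native Nanog 37 nearby, at 69.0 kb and 68.6 kb.

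The place most widely shared by summit position in either window was 70.3 kb upstream of Thbd. There 7 libraries had a summit within 107 bp: 31 tags in native Nanog, 29 in NanogBiD, 14 in native Oct4, 41 in native Sox2, 60 in Sox2BiD, 43 in native Nr5a2 and 47 in Nr5a2BiD. Oct4BiD had none, and native Oct4 was the lowest of the 7. The place falls in a non-coding exon of Gm14120, a lincRNA. Whether it acts on Thbd, Gm14120 or Cd93 cannot be read from peaks.

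Sites recurred between libraries at both genes. Of the 43 Dab2 sites, 13 were in 1 library, 22 in 2, 4 in 3 or 4 and 4 in 5 or more, 1 of them in all 8. Of the 39 Thbd sites, 15 were in 1 library, 9 in 2, 7 in 3 or 4 and 8 in 5 or more, 2 of them in all 8. Over all sites of the genome, 46.0% were in 1 library, 8.75% in 5 or more and 1.49% in all 8. The Dab2 share in 5 or more libraries, 9.30%, was close to that background, and the Thbd share was 20.5%. Sites of 1 library made up 30.2% at Dab2 and 38.5% at Thbd. Sites near genes were not set against sites of like position, so no test of these shares is given.

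Where a Dab2 site was in 2 libraries, these were the 2 forms of 1 factor in 13 of 22 cases, 5 times Oct4, 5 times Nr5a2, 2 times Nanog and 1 time Sox2. At Thbd this was so in 7 of 9 cases, 2 times each for Nanog, Sox2 and Nr5a2 and 1 time for Oct4. Over all sites of 2 libraries the 2 forms of 1 factor made up 84.3%, against 13 of 22 and 7 of 9 here, with no test made. Sites of a single library were mostly of 3 libraries: at Dab2, Oct4BiD had 4, Sox2BiD 4 and native Nr5a2 3, and at Thbd, Sox2BiD had 6, native Nr5a2 4 and NanogBiD 3. Each of these libraries has the longer list of its factor.

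Joined by overlap, several of the widely shared sites are chains of neighbouring peaks. When summits had to lie within 100 bp of the next, there were 58 places at Dab2 and 72 at Thbd. Of these, 1 at Dab2 (the second start, with 6 libraries) and 2 at Thbd (1.2 kb and 70.3 kb upstream) had 5 or more libraries. The share over all places of the genome was not counted under this rule, so these counts have no background. Neither of the Thbd sites with peaks of all 8 libraries, at 80.2 kb and 56.6 kb, was among them.

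**Figure D3:**
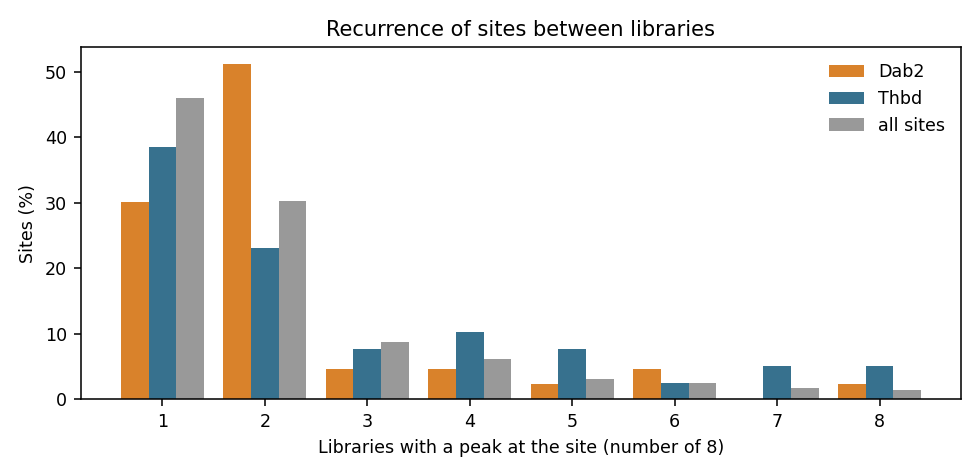
Recurrence of sites. The x axis is the number of libraries, of 8, with a peak at a site, and the y axis the percent of sites for Dab2 (43 sites), Thbd (39 sites) and all 306466 sites. The Dab2 bar for 2 libraries reaches 51.2%, against 23.1% for Thbd and 30.3% for all sites.

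The number of summits in the window differed by factor. At Dab2 there were 12 in native Nanog and 12 in NanogBiD, 11 in Oct4 and 20 in Oct4BiD, 4 in Sox2 and 18 in Sox2BiD, and 13 in Nr5a2 and 8 in Nr5a2BiD. At Thbd, native form first, the Nanog libraries had 15 and 15, those of Oct4 8 and 13, those of Sox2 12 and 24, and those of Nr5a2 17 and 13. The BiD form had more for Oct4 and Sox2, fewer for Nr5a2 and as many for Nanog, at both genes.

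Summed over factors, Dab2 had 40 native and 58 BiD summits and Thbd 52 and 65. The mean difference, BiD minus native, was 4.50 ± 8.58 summits at Dab2 and 3.25 ± 6.90 at Thbd (SD, n = 4 factors). By an exact two-sided sign-flip permutation test over the 4 factors, p was 0.5 for each gene (0.5 after Benjamini-Hochberg adjustment over the 2 genes). The smallest p that 4 factors allow is 2 of 16 sign assignments, so the exact test cannot reach p < 0.05. The Nanog difference was 0 at both genes, so flipping its sign changed nothing and the floor here was higher still. The mean differences were smaller than their SD between factors.

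Most genes also had more summits in the BiD list for Oct4 and Sox2, and few did for Nr5a2. The share of protein-coding genes with more summits in the BiD list was 53.2% in the Nanog pair, 82.2% in the Oct4 pair, 88.4% in the Sox2 pair and 4.18% in the Nr5a2 pair, counted in the same kind of window. List lengths moved with these counts: the Oct4BiD list held 93978 peaks against 54794 for the native form, the Sox2BiD list 120594 against 58162, the Nr5a2BiD list 76217 against 108030 and the NanogBiD list 75769 against 73465. By the read pairs in the study's reporting summary, the longer list came from the less deeply sequenced form for Oct4, Sox2 and Nr5a2 and from the more deeply sequenced form for Nanog. Per 10000 peaks of the library, the mean difference was 0.181 summits at Dab2 and -0.02 at Thbd. At Dab2 the Sox2 pair differed most after this scaling, 0.688 in native Sox2 against 1.49 in Sox2BiD, and at Thbd it was 2.06 against 1.99.

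**Figure D4:**
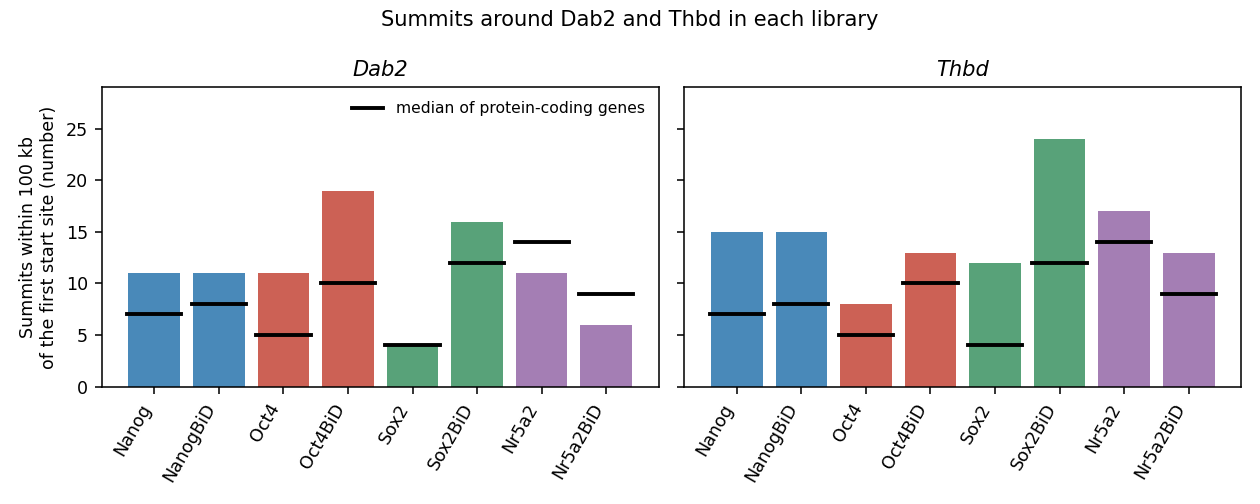
Summits within 100 kb of the first start site in each library (bars, number of summits), for Dab2 on the left and Thbd on the right, with 1 library per bar and no replicates. Black lines give the median over 21938 protein-coding genes. Dab2 lies under the line in both Nr5a2 libraries and on it in native Sox2, and Thbd lies above it in all 8.

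To compare windows of 1 size, summits within 100 kb of the first start were set against those of every protein-coding gene. Dab2 had 89 over the 8 libraries and Thbd 117, against a median of 73, and 31.5% and 5.05% of genes had at least as many. Dab2 stood highest in the Oct4 libraries: 4.96% of genes had at least as many in native Oct4 and 3.05% in Oct4BiD. It was in the middle or lower part for native Sox2 (55.2%), native Nr5a2 (63.3%) and Nr5a2BiD (69.5%), and at 21.2%, 32.7% and 26.9% in native Nanog, NanogBiD and Sox2BiD.

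Thbd stood highest in the Sox2 libraries, 2.73% in native Sox2 and 1.32% in Sox2BiD, and next in native Nanog (4.34%) and NanogBiD (9.36%). For native Oct4 it was 23.2%, for Oct4BiD 29.8%, for native Nr5a2 40.6% and for Nr5a2BiD 31.1%. The 2 genes thus differed in which factor's lists they were rich in: Oct4 for Dab2, and Sox2 and Nanog for Thbd. With 1 library per group this difference has no replicate check. Both forms of a factor stood on the same side for each of these, but their lists share many peaks, so this does not stand in for a replicate.

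Peaks of one form often overlapped a peak of that factor's other form. At Dab2 this was 60 of 98 peaks, 61.2% (exact 95% binomial interval 50.8 to 70.9), and at Thbd 82 of 117, 70.1% (60.9 to 78.2). Intervals cover counting error only. In the pooled shares an overlap was counted from the native peak and again from the BiD peak. The pooled intervals treat these linked peaks as independent, so they can be too narrow. By library, at Dab2, the numbers were 9 of 12 in native Nanog, 9 of 12 in NanogBiD, 9 of 11 in Oct4, 9 of 20 in Oct4BiD, 4 of 4 in Sox2, 4 of 18 in Sox2BiD, 8 of 13 in Nr5a2 and 8 of 8 in Nr5a2BiD. At Thbd they were 12 of 15, 11 of 15, 7 of 8, 8 of 13, 10 of 12, 11 of 24, 11 of 17 and 12 of 13 in the same order.

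Over all peaks the shares were 72.7% in native Nanog, 70.1% in NanogBiD, 73.1% in native Oct4, 42.4% in Oct4BiD, 86.3% in native Sox2, 41.4% in Sox2BiD, 60.7% in native Nr5a2 and 86.0% in Nr5a2BiD. The share at Dab2 was above the share of all peaks in 7 of 8 libraries, all except Sox2BiD, at 22.2% (exact interval 6.41 to 47.6, which takes in the 41.4%). At Thbd it was above in 7 of 8, all except native Sox2 (83.3%, exact interval 51.6 to 97.9). Some of these differences were small, such as 61.5% against 60.7% in native Nr5a2 at Dab2. At both genes the exact interval of each library took in that library's share of all peaks. No test was made, since peaks of 1 window share their libraries.

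At sites held by both forms, the paired heights can be set side by side. The highest peak of each form in the joined site was taken, so the summits of a pair were not always at the same place. In the Nanog pair at the Thbd start they lay 1660 bp apart. The BiD peak had the better rank in its own list at 7 of 9 shared Nanog sites of Dab2, 4 of 8 Oct4 sites, 3 of 4 Sox2 sites and 2 of 8 Nr5a2 sites. At Thbd it was 5 of 11, 4 of 7, 9 of 10 and 5 of 11. Over the whole genome the BiD peak had the better rank at 50.1% of such Nanog sites, 61.8% of Oct4 sites, 72.2% of Sox2 sites and 35.4% of Nr5a2 sites. An example for Sox2 at Thbd was 41 tags (top 16%) in native Sox2 and 60 (top 2.97%) in Sox2BiD at 70.3 kb upstream. A rank in a longer list also rests on the weak peaks it adds, and sites of 1 window share their libraries, so no test was made.

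Matches to a factor's own motif within 50 bp of its summit were few. At Dab2, 1 of 12 native Nanog summits, 1 of 13 native Nr5a2 summits and 1 of 8 Nr5a2BiD summits had one, and 0 in the other 5 libraries. At Thbd the numbers were 1 of 15 in NanogBiD, 1 of 24 in Sox2BiD, 2 of 17 in native Nr5a2 and 1 of 13 in Nr5a2BiD, and 0 in the other 4. Over all summits the shares were 1.70% in native Nanog, 2.55% in NanogBiD, 4.17% in native Oct4, 9.72% in Oct4BiD, 1.90% in native Sox2, 3.29% in Sox2BiD, 8.02% in native Nr5a2 and 6.16% in Nr5a2BiD. Counts of 0 to 2 per library are too few to set against these shares. Oct4BiD, with the highest share, had 0 matches at its 20 Dab2 summits and 0 at its 13 Thbd summits.

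Taken at the highest summit of each site, the octamer was at 0 of 43 Dab2 sites and 1 of 39 Thbd sites, SOX at 0 and 1, NR5A at 1 and 2 and NANOG at 1 and 0. TEAD, a family active in fibroblasts, was at 6 and 5, AP-1 at 2 and 3 and RUNX at 2 and 1. Over all summits of a library TEAD matches were at 5.43% to 11.3%, AP-1 matches at 3.61% to 10.2% and RUNX matches at 2.27% to 7.97%. These shares count every summit of a library and not the highest of each site, so they are not a like background for the site counts. A match in these windows is a description of the letters and not a bound site.

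Most sites lay outside exons. At Dab2, 13 of 43 sites were intergenic, and those in the gene body were intronic by their highest summit except 2, at the second start and at 140.3 kb near the gene's end, which were in untranslated exons. At Thbd, 33 of 39 were intergenic by their highest summit and 1, at 2.9 kb, lay in the untranslated part of its exon, where Sox2BiD had 51 tags and native Sox2 22. The others lay in exons or introns of Cd93 and Gm14120. The site at the Thbd start counted as intergenic, although native Nanog and Nr5a2BiD also had summits there in the coding exon.

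Few other genes start within the windows. In the Dab2 window these were Gm16311, an antisense transcript 10.1 kb inside the gene with a summit within 2 kb in Oct4, Oct4BiD and Sox2BiD, and the pseudogene Gm18888 at 30.1 kb, with native Nr5a2 only. In the Thbd window, Sstr4 (12.8 kb downstream) and the pseudogene Gm14119 (11.1 kb upstream) had none, Cd93 (35.4 kb upstream) had NanogBiD only, and Gm14120 (60.7 kb upstream) had 5 libraries: native Nanog, both Oct4 and both Sox2. Reads of CUT&Tag carry no strand of transcription, so a peak in Gm16311 is also a peak in Dab2.

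The windows were cut at fixed limits. The nearest summit inside the Dab2 window was 612 bp short of the gene's end (Nr5a2BiD, 12 tags), and the nearest outside was 3541 bp beyond it (native Nr5a2, 14 tags). At the upstream limit of Dab2 the nearest were both of Sox2BiD, 23626 bp inside (17 tags) and 7594 bp outside (21 tags). For Thbd the nearest inside was 535 bp from the upstream limit (Sox2BiD, 16 tags) and the nearest outside it was 11842 bp away (NanogBiD, 35 tags). At the downstream limit they were 3041 bp inside (native Nr5a2, 9 tags) and 6246 bp outside (Sox2BiD, 11 tags).

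The genes whose window counts were most like those of Dab2 over the 8 libraries were 4921507P07Rik (Euclidean distance 3.61 summits), Kif2a (4.0), a microtubule-depolymerising kinesin, and Tex9 (4.0). For Thbd they were Fas (2.83), which encodes a death receptor, Wdfy2 (3.16) and Larp4b (3.46). Kif2a, for example, had 11 summits in native Oct4 and 18 in Oct4BiD, against 11 and 20 at Dab2, and Fas had 12 in native Sox2 and 24 in Sox2BiD, the same numbers as Thbd.

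Genes of the pathways around the 2 members were counted as lists. Of 26 clathrin adaptors and cargo receptors, 12 (46.2%) had a promoter summit in all 8 libraries and 1 (Cltb, a clathrin light chain) in none, with a median of 92 summits within 100 kb over the 8 libraries, against 17.2% and 73 over all protein-coding genes. The highest was Cubn, an endocytic receptor, with 148 summits, and the lowest Dab1, the neuronal relative of Dab2, with 16. Ap2a1, Ap2b1, Ap2m1 and Ap2s1, subunits of the AP-2 adaptor to which Dab2 binds, had promoter summits in all 8, and Ap2a2 in 5.

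Of 22 genes of the thrombin and protein C system, 1 (F2r, the thrombin receptor) had a promoter summit in all 8 libraries, 4.55% of the list, and 1 (Cpb2) in none, with a median of 85 summits. Plau, the urokinase gene, was the highest with 141 and F8, coagulation factor VIII, the lowest with 26. Procr, the protein C receptor, and Proc, protein C itself, had promoter summits in 2 and 3 libraries. Of the 3 relatives of Thbd with the same lectin-like domain, none had one in all 8, and their median was 111: Cd93 had 122, in a window that overlaps that of Thbd, Cd248 111 and Clec14a 26.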

How the data were processed

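Peak lists of 8 CUT&Tag libraries, 1 per group, were analysed. Per the study's methods and the submitters' processing notes, the authors used Trim Galore 0.6.4 for trimming and Bowtie2 2.4.5 for mapping to mm10, removed repetitive, mitochondrial and low-quality reads (mapping quality under 30) with SAMtools 1.16.1, merged replicates where there were any, and ran MACS 1.4.2 as the peak caller with 1 tag kept at each position and reads shifted by 25 bp. The sources name no control library. Reads that map to several places were therefore removed in part, which can lower signal in repeats and near-identical copies; this was not tested. The study's reporting summary states that this kind of experiment was done once, so whether a list pools replicates is unknown.

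Scores, as deposited by the authors, are MACS p-values on the negative log10 scale multiplied by 10, with a minimum of 50 in every list. The deposited signal is the summit height in tags, not scaled to depth. The lists do not give depth. Read pairs per library are stated in the study's reporting summary and were not used to scale values. Depth can raise heights and scores, so peaks were ranked within their own list.

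Summits were assigned to genes of GENCODE M21 on GRCm38 (1-based positions), peaks sharing at least 1 bp were joined, and motif letters were searched within 50 bp of summits. Of 661009 peaks, 110 lay off the placed chromosomes. RefSeq promoters matched Dab2 (2 entries). BiD and native counts were compared over the 4 factors by exact permutation of signs. Named were the 2 genes, genes that start in their windows, the most widely shared and the highest sites, the 3 genes with the most similar counts (outside 1 Mb of a member), and examples by the highest and lowest count of each list. Genes named beyond these rules (members of AP-2, Procr, Proc, Col1a2, Vim) and some sites named for a rank or a motif were chosen after their values were seen. Members and lists, marker lists included, were chosen with earlier results of these data known. Alternatives were scaling per 10000 peaks, a score of at least 100, the 20000 best peaks of each list, windows of 50 kb or 2 kb, stricter overlap, motif windows of 25 and 100 bp, a promoter limit of 500 bp and leaving out each factor. Scripts used Python 3.11.15, NumPy 2.4.6, pandas 2.3.3, SciPy 1.17.1 and matplotlib 3.10.9, and the counting steps were tested on simulated data.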

Additional observations from a re-analysis of the deposited data

Results flagged for a closer look

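In raw counts, the difference between forms ran in opposite directions for different factors at both genes. At Dab2, BiD minus native was 9 summits for Oct4 and 14 for Sox2 but -5 for Nr5a2. At Thbd it was 5 for Oct4 and 12 for Sox2 but -4 for Nr5a2. Per 10000 peaks, native against BiD, these directions turned round at Thbd. The values were 1.46 against 1.38 for Oct4, 2.06 against 1.99 for Sox2 and 1.57 against 1.71 for Nr5a2. At Dab2 they held, with 2.01 against 2.13, 0.688 against 1.49 and 1.2 against 1.05 in the same order. Each group holds 1 library, so the difference between factors was not tested. The lengths of the lists differed in the same directions. With the 20000 best peaks of each list, the mean BiD minus native difference was 1.25 summits at Dab2 and 0.25 at Thbd. With all peaks it was 4.5 and 3.25. For the 20000 best peaks, the exact sign-flip permutation p at Dab2 lay at the floor that 4 factors allow. That floor is reached only when every factor differs in the same direction, here with more summits in the BiD form. The opposite direction of Nr5a2 at Dab2 was therefore not kept under this cut. How far list length shaped the count of each factor was not tested.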

How the results depend on the processing

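Of 40 recomputed main values, 27 kept their direction or stayed within the limits set, 12 moved and 1 reversed. The mean BiD minus native difference at Thbd became -0.02 summits per 10000 peaks (exact sign-flip permutation p = 0.625). Leaving out each factor in turn gave 1.33 to 7.67 summits at Dab2 and 0.333 to 5.67 at Thbd. The lowest values, 1.33 and 0.333, came without Sox2 and the highest, 7.67 and 5.67, without Nr5a2, so the sizes rest on these factors; at Dab2, leaving out Oct4 gave 3.0. With summits joined within 100 bp there were 72 Thbd sites, with 1 Dab2 site and 2 Thbd sites in 5 or more libraries, and the shares of peaks shared between forms were 46.9% and 51.3%, a stricter rule by construction. With the 20000 best peaks of each list there were 15 sites at each gene and 0 in 5 or more libraries, since fewer peaks enter. A score of at least 100 left 5 such Thbd sites. A 50 kb window left 19 Thbd sites, 3 of them in 5 or more libraries. Among smaller results, motif matches of the 4 factors were at 2 Dab2 sites (0 within 25 bp, 6 within 100 bp) and 4 Thbd sites (2 within 25 bp). The test paired the 2 forms of each factor. No pairing by replicate number was possible, since each group holds 1 library. Heights not scaled to depth and the lack of replicates limit every difference between libraries.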
